A study of Mus musculus with 8 samples.

Results

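The 38 mouse Hox genes described here were chosen by name, as the listed members of the 4 Hox clusters, and were followed across 8 RNA-seq libraries of mouse embryonic fibroblasts. They make up 38 of the 25215 entries in the deposited count table, with 10 genes in the Hoxa cluster, 10 in Hoxb, 9 in Hoxc and 9 in Hoxd. All libraries came from 1 immortalized line, 6KO iMEFs, in which Setdb1, Suv39h1, Suv39h2, Ehmt1 and Ehmt2, the enzymes that methylate H3K9, and Ring1b, a ubiquitin ligase of the Polycomb complex PRC1, had been knocked out, so the control group carries these 6 knockouts as well. The combined group received an shRNA against Ring1a (gene symbol Ring1) and DS3201 at 1 uM for 7 days, and the inhibitor group a control shRNA and DS3201 at the same dose and time. The knockdown group received the Ring1a shRNA alone and the control group the control shRNA alone. DS3201 blocks the catalytic activity of EZH1 and EZH2, the H3K27 methyltransferases of PRC2, and Ring1a is the PRC1 ligase left in cells without Ring1b. The shRNA was delivered by lentivirus and cells were selected with blasticidin. Each group had 2 libraries, 1 from each of 2 sets named after the column prefixes, set 28 and set 20. Nothing in the labels says that the sets were separate lines, so the spread behind the p-values may be technical.

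Hox genes encode homeodomain transcription factors that give cells along the body axis and the limbs their positional identity. In each cluster the genes stand in the order of their paralog numbers, with low numbers at the 3′ end, active early and toward the head, and high numbers at the 5′ end, active later and toward the tail and the tips of the limbs. Silent Hox clusters are classic targets of Polycomb: PRC2 places H3K27me3 and PRC1 ubiquitinates histone H2A there. Fibroblasts in culture keep a Hox pattern that reflects the site they were taken from.

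The Hoxd cluster, on the plus strand of chromosome 2, carried the clearest difference with DS3201, so the sequences upstream of the RefSeq start sites of 4 neighbouring genes in it are shown: Hoxd11, Hoxd10, Hoxd9 and Hoxd8. Each run is 250 bases, 5′ to 3′ on the plus strand of GRCm38.p6 from RefSeq, and capitals mark CG dinucleotides, the sites of DNA methylation.
Hoxd11, distal start (chr2:74679308-74679557): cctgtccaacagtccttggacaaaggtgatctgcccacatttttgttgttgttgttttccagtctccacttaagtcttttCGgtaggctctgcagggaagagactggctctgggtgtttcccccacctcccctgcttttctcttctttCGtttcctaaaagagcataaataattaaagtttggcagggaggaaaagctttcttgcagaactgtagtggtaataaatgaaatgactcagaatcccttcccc
Hoxd11, proximal start (chr2:74682073-74682322): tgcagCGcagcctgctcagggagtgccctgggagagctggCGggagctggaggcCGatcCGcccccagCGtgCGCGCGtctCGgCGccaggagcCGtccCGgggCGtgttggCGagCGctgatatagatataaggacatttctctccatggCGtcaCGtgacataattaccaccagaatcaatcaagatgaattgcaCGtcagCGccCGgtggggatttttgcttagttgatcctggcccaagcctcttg
Hoxd10 (chr2:74691641-74691890): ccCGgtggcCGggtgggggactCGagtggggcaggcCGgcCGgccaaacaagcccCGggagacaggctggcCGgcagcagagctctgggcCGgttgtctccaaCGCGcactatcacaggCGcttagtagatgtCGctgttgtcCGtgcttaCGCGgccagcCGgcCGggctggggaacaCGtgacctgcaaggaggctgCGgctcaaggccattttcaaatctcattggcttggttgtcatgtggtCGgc
Hoxd9 (chr2:74697513-74697762): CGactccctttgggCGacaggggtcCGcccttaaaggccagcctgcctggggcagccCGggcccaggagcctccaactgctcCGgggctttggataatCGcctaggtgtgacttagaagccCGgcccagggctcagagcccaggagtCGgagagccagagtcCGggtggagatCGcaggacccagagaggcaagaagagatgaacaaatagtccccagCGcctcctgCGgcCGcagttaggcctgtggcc
Hoxd8 (chr2:74704365-74704614): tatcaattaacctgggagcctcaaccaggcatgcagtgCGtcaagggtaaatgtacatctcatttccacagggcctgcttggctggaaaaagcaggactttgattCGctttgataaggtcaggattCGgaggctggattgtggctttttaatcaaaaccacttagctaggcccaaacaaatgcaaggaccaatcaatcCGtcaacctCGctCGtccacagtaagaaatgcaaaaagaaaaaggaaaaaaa
Hoxd11 has 2 RefSeq starts with unlike upstream sequence, 2 CG dinucleotides before the distal start and 20 before the other. The window of Hoxd10 held 20, that of Hoxd9 held 13 and that of Hoxd8 held 6, against a median of 6 over 32851 mouse promoter windows of the same length. The RefSeq table had windows for 22 of the 38 genes, 24 windows in all with 2 to 35 CG dinucleotides (median 12.5). Among the 9 Hoxd genes the count was lowest at the distal start of Hoxd11 and highest in Hoxd13, with 31. The letters TATAAA on either strand stood in 4 of the 24 windows, those of Hoxa10, Hoxb8, Hoxd13 and Hoxd4, and in 12.4% of all mouse windows.

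Total counts ran from 12738585 to 23688253 per library. Ring1 was at 2.04 and 3.64 CPM (counts scaled to the library total) in the combined group, 6.67 and 21.3 CPM in the inhibitor group, 1.42 and 4.69 CPM in the knockdown group, and 9.45 and 20.7 CPM in the control group; each pair of values here and below gives set 28 and then set 20. In each set Ring1 was lower with the Ring1a shRNA than with the control shRNA, both with DS3201 and without it. Of 14 fibroblast markers, none was at 0 in all libraries, and their summed level was 11790 to 16350 CPM with DS3201 and 18540 to 22870 CPM without it. Single fibroblast markers moved both ways: Col1a1 averaged 3780 CPM with DS3201 and 6240 CPM without it, and Pdgfra 18.7 and 2.6 CPM. Thy1 had no more than 0.438 CPM in any library. Summed markers of other cell types were at 132.7 to 302.5 CPM with DS3201 and 85.84 to 164.7 CPM without it for 8 epithelial genes, and at 75.89 to 105.6 CPM and 15.28 to 69.74 CPM for 7 neural genes. For 6 endothelial genes they were at 70.49 to 144.6 CPM and 44.77 to 118.2 CPM, for the 7 of 8 blood genes in the table at 13.35 to 19.38 CPM and 6.765 to 16.46 CPM, and for 5 pluripotency genes at 3.454 to 8.216 CPM and 0.8021 to 1.285 CPM. None of these genes was at 0 in all libraries. The part of these shifts in the Hox results was not tested, and in bulk RNA fewer cells with a transcript cannot be told apart from less of it per cell.

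In these fibroblasts the highest Hox levels belonged to paralogs 9 to 13 of 3 clusters, while the Hoxd cluster was almost silent without DS3201. Per kilobase of exon, averaged over the 8 libraries, the highest member was Hoxb9, which patterns the thoracic skeleton, at 29.2 CPM per kb. Next came Hoxc13, a gene of hair follicles and nails, at 21.0 CPM per kb, and Hoxc10, a gene of lumbar segments and hindlimb, at 17.2 CPM per kb. In the Hoxa cluster the highest were Hoxa10 with 9.11 and Hoxa11 with 7.23 CPM per kb, and in Hoxb the gene after Hoxb9 was Hoxb7 with 7.91 CPM per kb. The level rose toward the 5′ end most steadily in Hoxc: the rank correlation (Spearman) of level per kb with paralog number was 0.88 over its 9 genes, 0.54 over the 10 Hoxa genes and 0.36 over the 10 Hoxb genes. These are descriptions over genes that share libraries, and they came to 0.88, 0.61 and 0.50 when the coding length was used.

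**Figure D1:**
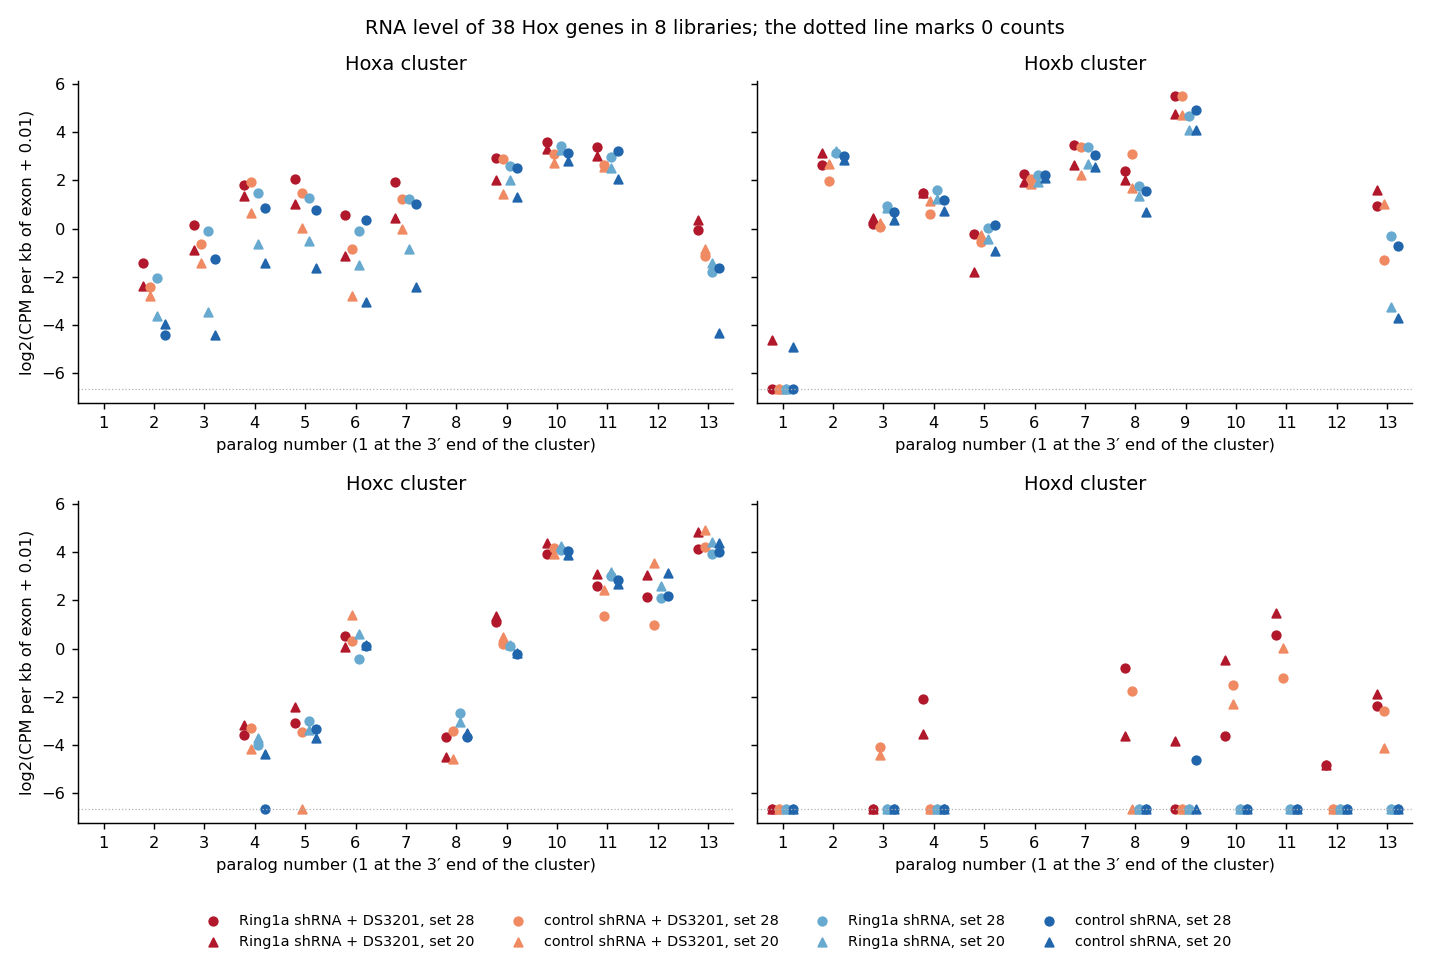
RNA level of each Hox gene (vertical axis, log2 of CPM per kb of exon plus 0.01) against its paralog number (horizontal axis), 1 panel per cluster, with circles for set 28, triangles for set 20 and 1 colour per group. Hoxb9 and Hoxc13 are highest, and in the Hoxd panel the libraries without DS3201 lie on the dotted line of 0 counts except for 1 count of Hoxd9.

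Values per library show how the 5′ genes sat in each group. Hoxb9 was at 118 and 69.5 CPM in the combined group, 116 and 68 CPM in the inhibitor group, 65.2 and 43.8 CPM in the knockdown group, and 77.1 and 44.1 CPM in the control group. Every library with DS3201 stood above its partner of the same set and shRNA, while the 2 ranges overlapped because set 20 was lower than set 28. Hoxc13 was at 42.5 and 70.3 CPM in the combined group, 45.8 and 73.9 CPM in the inhibitor group, 37.4 and 53.4 CPM in the knockdown group, and 39 and 51.7 CPM in the control group, with set 20 above set 28 in all 4 groups. Hoxc10 was at 29.4 and 40.3 CPM in the combined group, 34.8 and 29.1 CPM in the inhibitor group, 32.5 and 36.9 CPM in the knockdown group, and 31.6 and 27.8 CPM in the control group, and its groups overlapped. Hoxa10, known for roles in the lumbar spine and the uterus, was at 37.9 and 30.8 CPM in the combined group, 26.8 and 20.5 CPM in the inhibitor group, 33.2 and 30.5 CPM in the knockdown group, and 27.3 and 21.9 CPM in the control group. On plain CPM all 4 libraries with the Ring1a shRNA, at 30.5 to 37.9 CPM, lay above the 4 with the control shRNA, at 20.5 to 27.3 CPM. After TMM scaling these ranges overlapped, as the inhibitor library of set 28 had the lowest factor (0.889). How many other entries the shRNA separated was not counted, and Hoxa10 was not called for the knockdown with all 8 libraries. Its values with and without DS3201 overlapped. Hoxa11, which acts with Hoxd11 in the forearm and kidney, was at 24 and 18.3 CPM in the combined group, 14.4 and 13.3 CPM in the inhibitor group, 18.1 and 13.2 CPM in the knockdown group, and 21.5 and 9.49 CPM in the control group. Its exons overlap those of the antisense gene Hoxa11os over 800 bases (35.0% of its exon length), and whether counting used strand is not given in the sources used here. Hoxb7, a gene of the trunk, was at 14.5 and 7.93 CPM in the combined group, 13.3 and 5.97 CPM in the inhibitor group, 13.6 and 8.23 CPM in the knockdown group, and 10.6 and 7.54 CPM in the control group, with set 28 higher in every group.

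Other members lay lower. The 3′ genes Hoxb1, which marks a segment of the hindbrain, Hoxc4, Hoxc5, Hoxc8 and Hoxa2, which patterns the second branchial arch, had no more than 0.637 CPM in any library, and did not pass the filter on low counts. Summed over paralogs 9 to 13, Hoxc held a mean of 52.5, Hoxb 30.3 and Hoxa 21.9 CPM per kb, against 0.974 in Hoxd. Over paralogs 4 to 8 the order was different, with 19.1 CPM per kb in Hoxb, 6.37 in Hoxa, 1.57 in Hoxc and 0.152 in Hoxd. The filter kept 26 of the 38 genes for testing, 9 in Hoxa, 9 in Hoxb, 6 in Hoxc and 2 in Hoxd.

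The Hoxd genes were almost silent without DS3201 and had low counts with it. Without the inhibitor 8 of the 9 genes had 0 counts in all 4 libraries, and Hoxd9 had a single count in the control library of set 28. With the inhibitor 8 of the 9 had at least 1 count, 6 had more than 3 counts over the 4 libraries, and Hoxd1 stayed at 0 in all 8. The cluster summed to 69 and 86 counts in the combined group, 31 and 29 in the inhibitor group, 0 and 0 in the knockdown group, and 1 and 0 in the control group. As CPM that was a mean of 3.53 ± 1.78 with DS3201 and 0.0163 ± 0.0326 without it (SD, n = 4 libraries each). The libraries with DS3201 all lay above those without it, and the combined group above the inhibitor group.

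**Figure D2:**
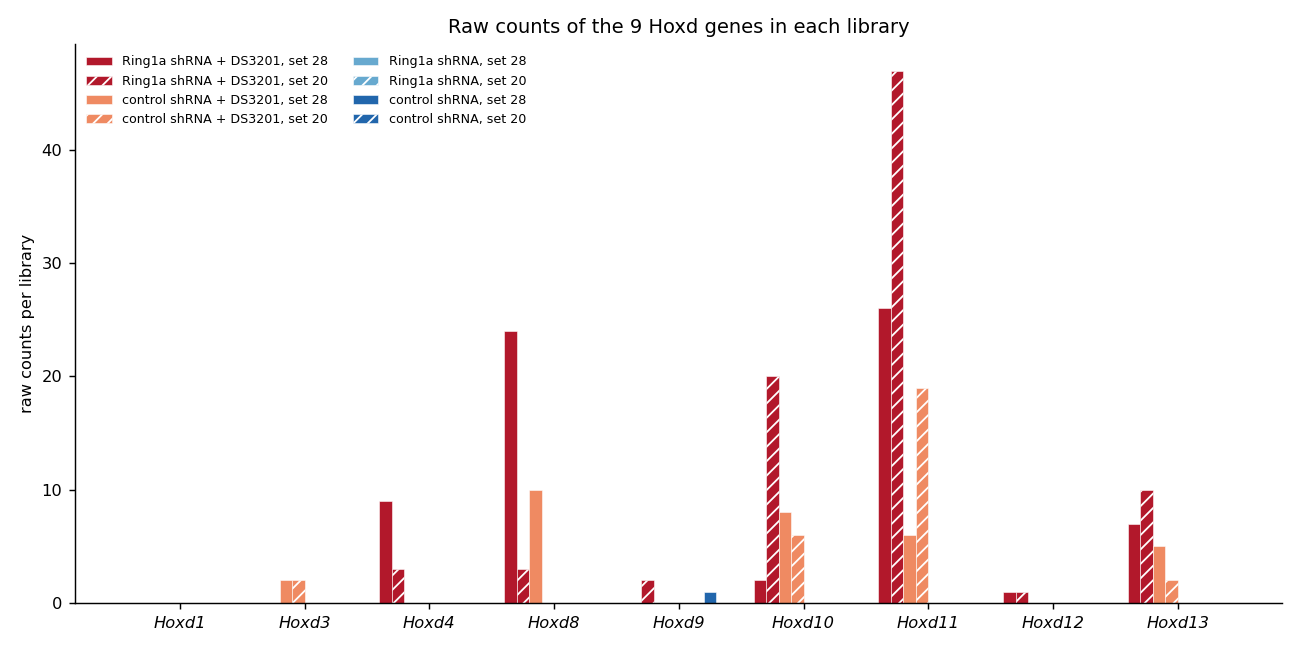
Raw counts (vertical axis) of the 9 Hoxd genes in each of the 8 libraries, with plain bars for set 28, hatched bars for set 20 and 1 colour per group. Hoxd11 reaches 26 and 47 counts in the combined group, and no bar is seen without DS3201 other than the 1 count of Hoxd9 in a control library.

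Hoxd11 (chr2:74679557-74687016), a gene of the forearm and kidney whose upstream sequences are given above, led the cluster with 26 and 47 counts in the combined group and 6 and 19 in the inhibitor group, against 0 in the 2 knockdown and 2 control libraries. It was at 1.66 and 3.06 CPM in the combined group and 0.471 and 1.12 CPM in the inhibitor group. All 4 libraries with DS3201 lay above the 4 without it. Against a floor of 3 counts over the 4 libraries without the inhibitor, Hoxd11 was at least 40.0-fold higher with DS3201. It rose in the edgeR fit of DS3201 over both shRNAs (log2 fold change 7.55, adjusted p = 0.0212). It was 1 of the 26 tested Hox genes to do so (3.85%), where 5.24% of all 15287 entries rose and 0.216% fell. Hoxd8 and Hoxd11 passed the filter on low counts only through libraries with DS3201, and without these genes it was 0 of 24. With the set as a replicate block the adjusted p of Hoxd11 was 0.00358. Without the block the call ended when any of 5 libraries was left out: the adjusted p was 0.0561 without the control and 0.0544 without the knockdown library of set 20, 0.106 without the combined library of set 20, 0.081 without that of set 28 and 0.072 without the inhibitor library of set 28. With the block it held in 8 of 8 such fits, at adjusted p up to 0.047.

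Hoxd8 (chr2:74704615-74707933), a trunk gene, had 24 and 3 counts in the combined group and 10 and 0 in the inhibitor group, against 0 in the 4 other libraries. It was higher in set 28 than in set 20 in both DS3201 groups, and 1 inhibitor library stayed at 0, so the groups were not fully apart. It was at least 15.1-fold higher with DS3201, with a log2 fold change of 6.36 (adjusted p = 0.231), and it rose with the replicate block (6.07, adjusted p = 0.031). That call ended without the combined library of set 20 (adjusted p = 0.101), the control or knockdown library of set 28 (0.12 and 0.0961) or the inhibitor library of set 28 (1), and Hoxd8 was not tested without the combined library of set 28. Both Hoxd8 and Hoxd11 passed the filter on low counts only through the libraries with DS3201, so a difference was built into their being tested.

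The remaining Hoxd genes were too low to be tested, and their values are counts. Hoxd10 (chr2:74691924-74695105), a gene of lumbar motor neurons and the hindlimb, had 2 and 20 counts in the combined group and 8 and 6 in the inhibitor group, and none without DS3201, at least 14.7-fold higher with it. Hoxd13, needed for digit formation, had 7 and 10 counts in the combined group and 5 and 2 in the inhibitor group, and none without DS3201 (at least 9.80-fold higher). Both genes were thus above 0 in all 4 libraries with the inhibitor and in none without it. How many other entries too low to be tested had this pattern was not counted. Hoxd4 had 9 and 3 counts in the combined group and 0 in the 6 other libraries, and Hoxd3 had 2 and 2 counts in the inhibitor group alone. Exons of these 2 neighbours share 388 bases on the same strand. Hoxd9 had 0 and 2 counts and Hoxd12, a limb gene, 1 and 1 in the combined group, under the floor of 3 counts.

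Genes beside the Hoxd cluster were expressed in every library. Mtx2, which encodes a mitochondrial outer-membrane protein, was at 71.6 and 56.3 CPM in the combined group, 63.2 and 57.2 CPM in the inhibitor group, 54.2 and 43.2 CPM in the knockdown group, and 47.6 and 44.2 CPM in the control group. It was higher with DS3201 in each set and shRNA, as were 23.9% of all entries. Mtx2 rose with the replicate block (log2 fold change 0.42 ± 0.10, SE, adjusted p = 0.0331), where 12.9% of all entries rose, but not without it. Evx2, the homeobox gene next to Hoxd13, and Evx1, next to Hoxa13, were at 0 counts in all 8 libraries, as were Cdx4 and Gsx1 of the related ParaHox group, and none of the 8 Evx and ParaHox genes passed the filter.

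Across the other clusters the change with DS3201 was smaller and depended on the gene. The cluster sum was 83.2 ± 26.5 CPM with DS3201 and 68.5 ± 21.5 CPM without it in Hoxa, 151 ± 33.5 and 111 ± 23.9 CPM in Hoxb, and 117 ± 26.0 and 104 ± 12.3 CPM in Hoxc (SD, n = 4 libraries each). These ranges overlapped in all 3 clusters. Within sets and shRNAs the sum was higher with DS3201 in all 4 pairs of libraries in Hoxa and in Hoxb and in 3 of 4 in Hoxc, which was not tested. The median log2 fold change was 0.75 in Hoxa (9 genes), 0.01 in Hoxb (9 genes) and 0.26 in Hoxc (6 genes), against 0.04 over all entries. In 20 of the 26 tested genes the log2 fold change was above 0. The libraries with DS3201 lay entirely above those without it for 3 of the 26 (11.5%), Hoxa13, Hoxc9 and Hoxd11, which is near the 12% of all entries, and entirely below for none (5.61% of all entries). Within sets and shRNAs, 11 of the 26 (42.3%) were higher with DS3201 in all 4 pairs of libraries, where 23.9% of all entries were, and 3 (11.5%) were lower in all 4, where 20.7% were.

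**Figure D3:**
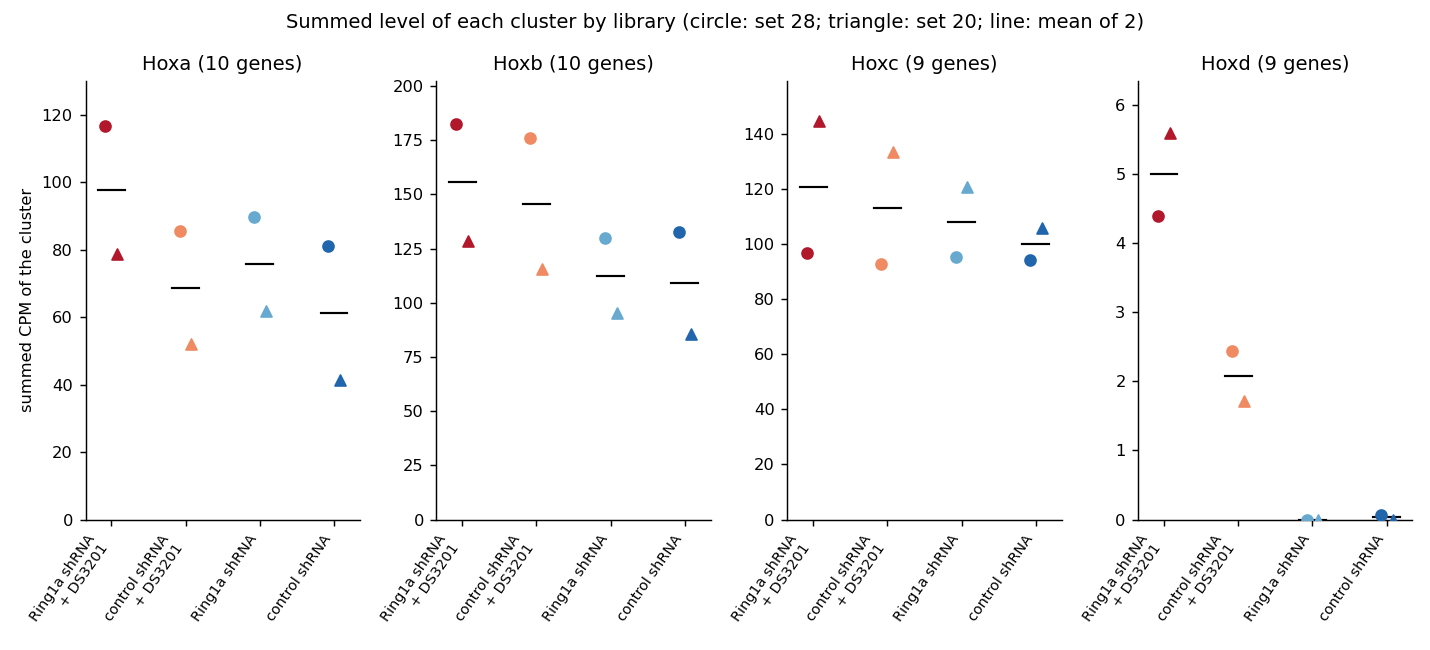
Summed CPM of each Hox cluster (vertical axis, from 0) in the 4 groups, with a circle for set 28, a triangle for set 20 and a line for their mean. Only the Hoxd panel separates the libraries with DS3201 from those without; in Hoxa and Hoxb set 28 lies above set 20 in every group and in Hoxc below it.

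With the set as a replicate block, 7 of the 26 tested Hox genes rose with DS3201 (26.9%) and none fell, where 12.9% of all entries rose and 4.16% fell. Leaving out Hoxd8 and Hoxd11 it was 5 of 24 (20.8%): Hoxa4, Hoxa5, Hoxb8, Hoxb9 and Hoxc9. The block pairs libraries of the same set, whose deviations from their group means went together (correlations of 0.559 to 0.897 across entries). The count moved with the libraries in the fit. It was lower when any library other than the inhibitor library of set 20 was left out. Without that library it was higher, with Hoxb2 and Hoxc11 then called as lower. Calls over all entries also became more frequent there in both directions, so the increase was not particular to Hox genes.

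In the Hoxa cluster (chromosome 6, minus strand) Hoxa4 and Hoxa5 rose in the blocked fit. Hoxa5, known for its role in lung development, was at 7.71 and 3.84 CPM in the combined group, 5.26 and 1.89 CPM in the inhibitor group, 4.53 and 1.31 CPM in the knockdown group, and 3.19 and 0.584 CPM in the control group. It was higher with DS3201 in each of the 4 pairs, and the groups overlapped because of the sets. The log2 fold change was 1.16 ± 0.29 (SE; adjusted p = 0.0332) with the block and 1.00 ± 0.73 (adjusted p = 0.56) without it. Hoxa4, a gene of the neck vertebrae, was at 5.6 and 4.03 CPM in the combined group, 6.12 and 2.48 CPM in the inhibitor group, 4.46 and 1.01 CPM in the knockdown group, and 2.87 and 0.584 CPM in the control group. It too was higher in each pair, with a log2 fold change of 1.36 ± 0.35 (adjusted p = 0.0387) with the block and 1.11 ± 0.72 (adjusted p = 0.498) without it. The blocked call of Hoxa5 held in 2 of 8 fits with a library left out and that of Hoxa4 in 3 of 8: without the inhibitor library of set 20 (both), the control library of set 28 (Hoxa5), and the knockdown or combined library of set 28 (Hoxa4), with adjusted p up to 0.136 for Hoxa5 and 0.152 for Hoxa4 in the others.

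The largest log2 fold change in Hoxa was that of Hoxa13, which patterns the digits and the hindgut, and it passed in neither fit. Hoxa13 was at 2.36 and 3.12 CPM in the combined group, 1.1 and 1.36 CPM in the inhibitor group, 0.676 and 0.887 CPM in the knockdown group, and 0.782 and 0.0973 CPM in the control group. All 4 libraries with DS3201 lay above all 4 without it, at 1.98 ± 0.932 against 0.611 ± 0.353 CPM (SD, n = 4 each). The log2 fold change was 1.66 ± 0.61 (adjusted p = 0.222), or 1.71 ± 0.52 with the block (adjusted p = 0.0662). The other 6 tested Hoxa genes ranged from -0.17 in Hoxa6 to 1.00 in Hoxa3, a gene of the thymus and parathyroid, and none passed.

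In Hoxb (chromosome 11, plus strand) the log2 fold change of DS3201 followed the paralog number with a rank correlation of 0.92 over 9 genes, those that did not pass included, against -0.18 over 9 Hoxa genes and -0.43 over 6 Hoxc genes, as a description of these libraries. At the 5′ side Hoxb9, with the values per library given above, averaged 92.8 ± 27.7 CPM with DS3201 and 57.6 ± 16.4 CPM without it (SD, n = 4 each). It rose in the blocked fit (log2 fold change 0.71 ± 0.11, adjusted p = 0.00584), and in 8 of 8 blocked fits with a library left out (adjusted p up to 0.0463), though not without the block (0.73 ± 0.35, adjusted p = 0.344). Hoxb8, known in mice for a role in grooming, was at 13.9 and 10.5 CPM in the combined group, 22.7 and 8.34 CPM in the inhibitor group, 9.06 and 6.75 CPM in the knockdown group, and 7.82 and 4.18 CPM in the control group. It was higher with DS3201 in all 4 pairs, most in the inhibitor library of set 28. Its log2 fold change was 1.00 ± 0.24 with the block (adjusted p = 0.0305) and 1.05 ± 0.43 without it (adjusted p = 0.269). The blocked call held without either inhibitor library (adjusted p = 0.00236 for set 20 and 0.0328 for set 28) and ended without any of the 6 others (0.0529 to 0.163).

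Hoxb13, a gene of the prostate and the tail, had the largest log2 fold change of the cluster and the widest spread. It was at 4.14 and 6.7 CPM in the combined group, 0.864 and 4.49 CPM in the inhibitor group, 1.76 and 0.211 CPM in the knockdown group, and 1.3 and 0.146 CPM in the control group. In set 28 the inhibitor library lay below its control, so 3 of 4 pairs were higher, and neither fit passed (2.17 ± 0.94, adjusted p = 0.299; 2.41 ± 0.91 with the block, adjusted p = 0.119). At the 3′ side Hoxb2 and Hoxb3, genes of the hindbrain, were lower with DS3201 in all 4 pairs. Hoxb2 averaged 10.2 ± 3.17 CPM with DS3201 and 13.6 ± 1.61 CPM without it, and Hoxb3 4.10 ± 0.442 and 5.82 ± 1.00 CPM (SD, n = 4 each). Neither passed: the log2 fold changes were -0.42 ± 0.20 and -0.47 ± 0.23 (adjusted p = 0.364 and 0.37). Exons of both genes overlap the antisense gene Hoxb3os, over 58.5% of Hoxb2 and 63.9% of Hoxb3.

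In Hoxc (chromosome 15, plus strand) Hoxc9, which sets thoracic identity in motor neurons, was at 5.1 and 5.98 CPM in the combined group, 2.67 and 3.25 CPM in the inhibitor group, 2.57 and 2.62 CPM in the knockdown group, and 2.02 and 2.09 CPM in the control group. All 4 libraries with DS3201 lay above the 4 without it, and the combined group lay highest. The log2 fold change was 0.83 ± 0.25 (adjusted p = 0.135), and 0.83 ± 0.21 with the block, where Hoxc9 rose (adjusted p = 0.0378). This blocked call held without either inhibitor library (0.0282 for set 20 and 0.0435 for set 28) and ended without any of the 6 others (0.102 to 0.189). Hoxc11, a gene of the hindlimb and kidney, was lower with DS3201 in all 4 pairs, at 11.3 ± 4.99 against 15.7 ± 2.31 CPM (SD, n = 4 each), and did not pass (-0.52 ± 0.24, adjusted p = 0.344). The other 4 tested Hoxc genes had log2 fold changes from 0.09 to 0.48 in the fit without the block, and none passed.

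**Figure D4:**
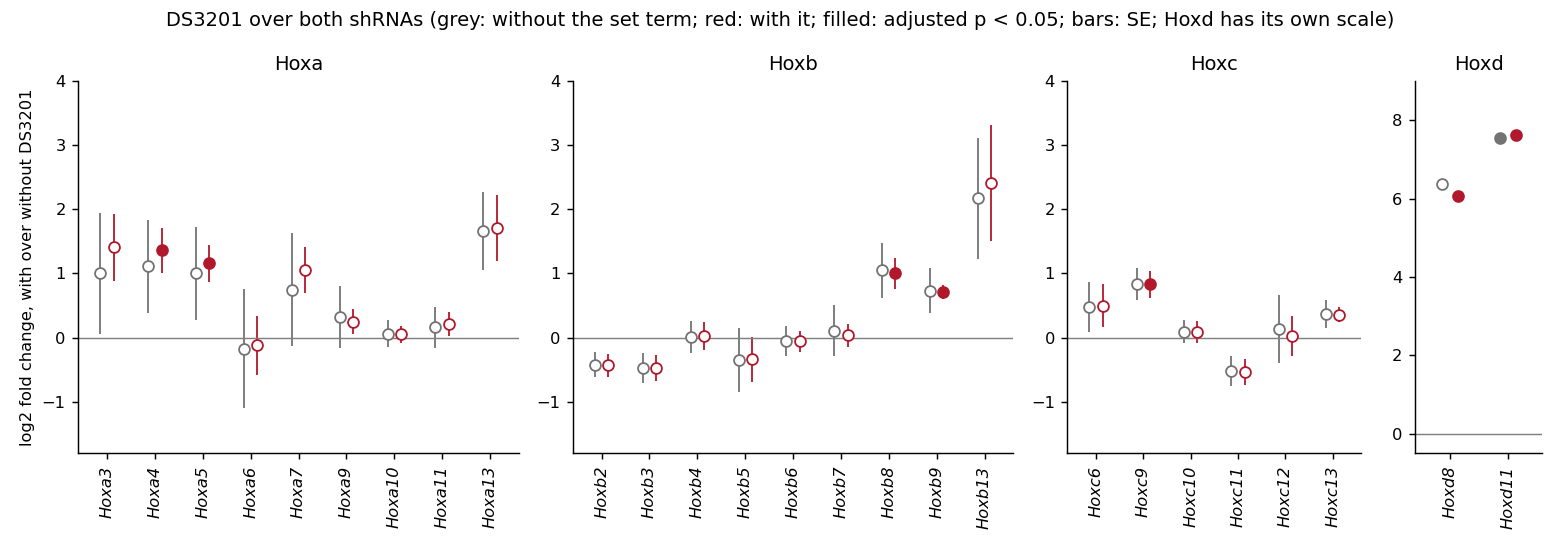
Log2 fold change with over without DS3201 (vertical axis) for the 26 tested Hox genes ordered by paralog number, in grey from the fit without the set term and in red with it; bars are standard errors and filled points passed at adjusted p under 0.05. The grey Hoxb values run from -0.47 in Hoxb3 to 2.17 in Hoxb13, and Hoxd11, on its own scale, is filled in both fits; no bar is drawn for Hoxd genes, which had 0 counts without DS3201.

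The 2 single comparisons of DS3201 made fewer calls than the comparison over both shRNAs. In cells with the Ring1a knockdown, 22 of 26 log2 fold changes were above 0 (median 0.38, all entries 0.01) and none passed without the block, where 0.602% of all entries rose and none fell. With the block Hoxb9 (0.76 ± 0.15, adjusted p = 0.0315) and Hoxd11 (8.40, adjusted p = 0.0129) rose, 7.69% of the 26, where 6.05% of all entries rose and 0.824% fell; without Hoxd8 and Hoxd11 it was 1 of 24 (4.17%). In cells with the control shRNA 18 of 26 were above 0 (median 0.41, all entries 0.07) and none passed without the block, where 0.726% of all entries rose and none fell. With the block Hoxd11 alone rose (6.85, adjusted p = 0.0331), 3.85% of the 26, where 6.62% of all entries rose and 0.706% fell; without Hoxd8 and Hoxd11 it was 0 of 24. At an unadjusted p under 0.05 the fits without the block held 2 Hox genes in each comparison, a threshold at which all entries were not counted. DESeq2 called Hoxd11 alone among Hox genes in each. Over all entries it called 620 higher and 38 lower with the knockdown, and 731 and 67 with the control shRNA. In the knockdown comparison the blocked call of Hoxb9 ended without either knockdown, combined or control library (adjusted p = 0.067 to 0.321), and that of Hoxd11 without the knockdown library of set 20 (0.0734) or the combined library of set 20 or 28 (0.173 and 0.132). In the control shRNA comparison that of Hoxd11 ended without either control library (0.233 for set 20 and 0.0725 for set 28), either combined library (0.137 and 0.122) or the inhibitor library of set 28 (0.0734). The interaction, the test of whether DS3201 acted differently with and without the knockdown, called no entry with or without the block, and no Hox gene reached an unadjusted p under 0.05 in it.

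The combined group against control, which sets cells given the Ring1a shRNA and DS3201 against cells given the control shRNA alone, was compared as well. These RNA counts do not measure how much of either Polycomb activity was left. All 9 tested Hoxa genes were above 0, with a median log2 fold change of 1.19, against 0.28 in Hoxb, 0.17 in Hoxc and 0.02 over all entries. None of the 26 passed in edgeR without the block, where 1.43% of all entries rose and 0.0327% fell. An unadjusted p under 0.05 was reached by 3, a threshold at which all entries were not counted. DESeq2 called 2, Hoxc9 and Hoxd11, among 918 higher and 126 lower entries. With the block 4 of 26 rose (15.4%), where 9.21% of all entries rose and 2.06% fell: Hoxa5 (1.87 ± 0.41, adjusted p = 0.0307), Hoxb9 (0.61 ± 0.15, adjusted p = 0.0498), Hoxc9 (1.40 ± 0.30, adjusted p = 0.0293) and Hoxd11 (8.37, adjusted p = 0.0106). Without Hoxd8 and Hoxd11 it was 3 of 24 (12.5%). Hoxd11 was at least 28.1-fold higher in the combined group, Hoxd8 at least 10.4-fold and Hoxd10 at least 8.47-fold, with 3 counts over the 2 control libraries as the floor. These calls were all lost when the control library of set 20 or either combined library was left out. Leaving out either inhibitor library gave more calls, among Hox genes and among all entries alike. Without either knockdown library or the control library of set 28, Hoxd11 stayed called and Hoxb9 and Hoxc9 did not.

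Ring1a knockdown alone called no Hox gene and no entry of the table in edgeR, with the block or without it. Ring1 itself was tested and not called, although it was lower with the Ring1a shRNA in each set and inhibitor state. The lack of calls therefore cannot show that no gene changed. DESeq2 called no Hox gene either, and 7 higher and 17 lower entries over both inhibitor states. The blocked edgeR fit without the inhibitor library of set 20 called 1715 higher and 1744 lower entries over both states, Hoxa10 and Hoxc11 among them. Over both inhibitor states, 19 of the 26 tested Hox genes had a log2 fold change above 0 (median 0.34, all entries 0.00), from -0.35 in Hoxc6 to 0.94 in Hoxa13, and the adjusted p was 1 for each. At an unadjusted p under 0.05 there were 0 Hox genes without the block and 4 with it (Hoxa5, Hoxa10, Hoxc9 and Hoxc11). The share of all entries at that unadjusted threshold was not counted. At an adjusted p under 0.05 no Hox gene and 0% of all entries passed in either direction in edgeR with all 8 libraries. Within sets and inhibitor states 12 of 26 (46.2%) were higher with the Ring1a shRNA in all 4 pairs, where 17.3% of all entries were. With TMM-scaled values it was 9 (34.6%), and the share of all entries was not computed on that scale. On plain CPM no tested Hox gene was lower in all 4 pairs, where 10.2% of all entries were. All 9 tested Hoxa genes had values above 0, from 0.18 in Hoxa9 to 0.94 in Hoxa13. The largest single value with the inhibitor present was that of Hoxd11, whose log2 fold change was 1.50 ± 0.75 in the combined over the inhibitor group (adjusted p = 1; 1.52 ± 0.50 and 0.594 with the block).

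More of the tested Hox genes passed for the set than for any treatment, although both sets hold the same 4 conditions. In the fit with a term for the set, 13 of the 26 tested genes differed: 11 were higher in set 28 (42.3%), where 11.7% of all entries were, and 2 were lower (7.69%), where 13.9% were. The difference depended on the cluster. In Hoxa 7 of 9 genes were higher in set 28 and none lower, in Hoxb 3 of 9, and in Hoxc 2 of 6 were lower and none higher. The calls of both Hoxc genes, and of Hoxa3, Hoxa11, Hoxb8 and Hoxd8, were lost in most fits with a library left out. The log2 fold changes of the 2 Hoxc genes stayed below 0 there (-1.33 to -0.72 in Hoxc12 and -0.56 to -0.42 in Hoxc13). Hoxc held 24.2% to 30.6% of all Hox counts in set 28 and 40.5% to 45.5% in set 20.

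Within Hoxa the difference was largest at the 3′ side and middle. Hoxa7, a trunk gene, was at 9.55 and 3.38 CPM in the combined group, 5.73 and 2.42 CPM in the inhibitor group, 5.82 and 1.35 CPM in the knockdown group, and 5.08 and 0.438 CPM in the control group, with set 28 above set 20 in all 4 groups (log2 fold change 2.09 ± 0.37, adjusted p = 0.00932). Hoxa3 was at 2.87 and 1.37 CPM in the combined group, 1.65 and 0.946 CPM in the inhibitor group, 2.37 and 0.211 CPM in the knockdown group, and 1.04 and 0.0973 CPM in the control group (1.99 ± 0.52, adjusted p = 0.0324). Hoxa6 was at 1.27 and 0.39 CPM in the combined group, 0.471 and 0.118 CPM in the inhibitor group, 0.812 and 0.296 CPM in the knockdown group, and 1.11 and 0.0973 CPM in the control group (2.11 ± 0.47, adjusted p = 0.0192). In both genes every set 28 library exceeded its set 20 partner. Hoxa9, known from blood cell formation, was at 24.6 and 13.1 CPM in the combined group, 23.6 and 8.81 CPM in the inhibitor group, 19.4 and 12.9 CPM in the knockdown group, and 18.2 and 8.08 CPM in the control group (1.12 ± 0.19, adjusted p = 0.00863). Hoxa5 (1.73 ± 0.29, adjusted p = 0.00793), Hoxa4 (1.59 ± 0.35, adjusted p = 0.0189) and Hoxa11 (0.63 ± 0.19, adjusted p = 0.0466) were higher in set 28 as well. The rank correlation of the set difference with paralog number was -0.72 over the 9 Hoxa genes, 0.73 over the 9 Hoxb genes and -0.54 over the 6 Hoxc genes.

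**Figure D5:**
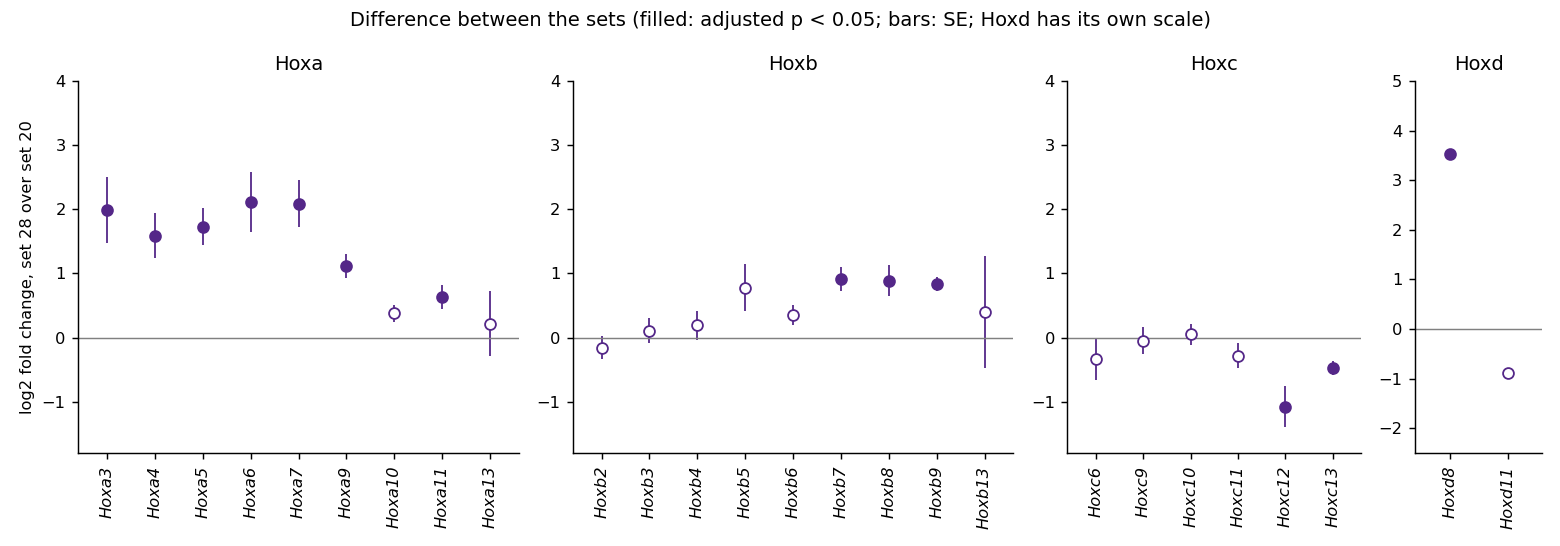
Log2 fold change of set 28 over set 20 (vertical axis) for the 26 tested Hox genes ordered by paralog number, from the fit with a term for the set; bars are standard errors and filled points passed at adjusted p under 0.05. Hoxa3 to Hoxa7 lie between 1.59 and 2.11, Hoxb7 to Hoxb9 between 0.83 and 0.91, and Hoxc12 and Hoxc13 below 0.

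In Hoxb the 3 genes higher in set 28 were neighbours, Hoxb7 (0.91 ± 0.19, adjusted p = 0.0146), Hoxb8 (0.89 ± 0.24, adjusted p = 0.036) and Hoxb9 (0.83 ± 0.11, adjusted p = 0.00383). In Hoxc the 2 lower genes stand at the 5′ end: Hoxc13 (-0.48 ± 0.11, adjusted p = 0.0201) and Hoxc12, at 4.59 and 8.45 CPM in the combined group, 2.04 and 11.9 CPM in the inhibitor group, 4.46 and 6.25 CPM in the knockdown group, and 4.69 and 9.15 CPM in the control group (-1.08 ± 0.32, adjusted p = 0.0468). In Hoxd, Hoxd8 was higher in set 28 (3.53, adjusted p = 0.0494), and Hoxd11 did not pass (-0.88, adjusted p = 0.244). Hoxa5, Hoxa7, Hoxa9 and Hoxb9 held their call in 8 of 8 fits with a library left out. The count of 13 was 5 without the control, knockdown or combined library of set 20 or the control or combined library of set 28, and 7 without the knockdown library of set 28. Mira, an RNA gene within Hoxa, moved with the cluster, at 8.28 and 3.71 CPM in the combined group, 4.63 and 1.72 CPM in the inhibitor group, 6.56 and 0.929 CPM in the knockdown group, and 3.97 and 0.438 CPM in the control group (log2 fold change 2.16 ± 0.38, adjusted p = 0.00951). Jazf1, a protein-coding gene beyond the 5′ end of the cluster, was at 8.98 and 4.62 CPM in the combined group, 9.18 and 2.54 CPM in the inhibitor group, 7.24 and 0.0422 CPM in the knockdown group, and 6.06 and 0 CPM in the control group. It did not pass (3.20 ± 0.99, adjusted p = 0.0532). Hibadh and Tax1bp1 lie between Hoxa13 and Jazf1. Hibadh was lower in set 28 than in set 20 in every group, at 31.3 and 35.3 CPM in the control group. Tax1bp1 had no steady direction, at 226 and 265 CPM in the combined group, 403 and 263 CPM in the inhibitor group, 198 and 198 CPM in the knockdown group, and 205 and 189 CPM in the control group.

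None of the 9 TALE cofactors (Pbx, Meis and Pknox genes), whose proteins bind DNA together with Hox proteins, passed for DS3201 over both shRNAs in either fit (median log2 fold change 0.02). None of 20 genes for activators of Hox chromatin, such as the MLL enzymes, UTX and DOT1L, passed in either fit of that comparison (median 0.01). Of the RNA genes in the clusters 5 could be tested and none passed for DS3201 in either fit; Hotair, in Hoxc, was at 3.63 and 2.80 CPM in the combined group, 4.40 and 1.72 CPM in the inhibitor group, 3.65 and 5.53 CPM in the knockdown group, and 4.04 and 4.09 CPM in the control group. Its groups overlapped. Of the 9 genes targeted in this design Ezh2 rose with DS3201 in the blocked fit (0.52 ± 0.13, adjusted p = 0.0356) and none passed without the block. Among 23 tested flanking genes Mtx2 alone rose with DS3201, in the blocked fit. In that fit 12.9% of all entries rose.

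Genes of retinoic acid handling, the signal that activates 3′ Hox genes in embryos, moved in both directions. Dhrs3, which reduces retinal to retinol, was at 5.60 and 2.80 CPM in the combined group, 6.44 and 5.56 CPM in the inhibitor group, 15.6 and 13.6 CPM in the knockdown group, and 14.8 and 12.9 CPM in the control group. All libraries with DS3201 lay below all without it, and Dhrs3 fell with DS3201 in the fit without the block (-1.46 ± 0.29, adjusted p = 0.0379), as 1 of 13 tested genes, where 0.216% of all entries fell and 5.24% rose. With the block 4 of the 13 rose, where 12.9% of all entries rose and 4.16% fell, among them Cyp26b1, which degrades retinoic acid (3.12 ± 0.40, adjusted p = 0.00307), and Stra6, a retinol transporter (3.69 ± 0.77, adjusted p = 0.0192). The others were Crabp1, which binds retinoic acid (1.07 ± 0.26, adjusted p = 0.0323), and Aldh1a2, which makes it (5.95, adjusted p = 0.021). Aldh1a2 had 0 counts without DS3201, so that it entered the test only through the libraries with it. It had 1 and 10 counts in the combined group and 1 and 14 in the inhibitor group. Stra6 was at 8.02 and 29.6 CPM in the combined group, 1.49 and 34.2 CPM in the inhibitor group, 2.16 and 1.90 CPM in the knockdown group, and 0.586 and 0.487 CPM in the control group. With DS3201 both genes were thus higher in set 20 than in set 28. Of 12 tested limb and positional factors, the LIM homeobox genes Lhx2 (0.92 ± 0.21, adjusted p = 0.0271) and Lhx9 (1.91 ± 0.48, adjusted p = 0.0364) rose with the block, where 12.9% of all entries rose, and none without it.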

How the data were processed

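RNA-seq counts of 8 libraries in 4 groups of 2 were analysed. The deposited values are raw counts of genes and repeat subfamilies that the authors left unnormalized. Per the submitters' processing notes, the tools were Trim Galore and TopHat2 and the build mm10; for the counting tool and its use of strand the sources used here give nothing. Columns start with 20 or 28, called set 20 and set 28. The labels give each replicate number its own batch but do not tie it to a prefix. The table has 8 further columns that no label covers, and these stayed out.

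The test was edgeR 4.0.16 in R 4.3.3 (filterByExpr by group, minimum count 10, TMM, robust quasi-likelihood F tests, two-sided), with 1 term per group over all 8 libraries. Of 25215 entries, 15287 were tested, 14393 genes and 894 repeat subfamilies, with Benjamini-Hochberg adjustment over all of them and a threshold of 0.05. A fit with the set as replicate block was the alternative. The prefix was taken to pair libraries because deviations of same-set libraries from their group means correlated between all groups (0.559 to 0.897). Standard errors are left out for contrasts with a group at 0 counts. Floors of 3 counts allow for counting error alone, as these reads carry no molecular identifiers; 3 counts were 0.127 to 0.236 CPM per library.

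CPM uses the plain total of the table. Gene positions and exon lengths are those of GENCODE vM21 on GRCm38, the assembly of mm10. Fits were tested on simulated data. Other alternatives were RLE scaling, no filter on low counts, genes alone, the compared libraries alone, DESeq2 1.42.0, and leaving out each library. The members, gene lists and tests were chosen with earlier results of these data known. Values in every library are given for members called in any comparison in either fit, the 2 highest per kb in each cluster, the largest DS3201 change in each, and members near 0 on 1 side of DS3201. From other lists, called members are named, as are Hotair, Jazf1, Hibadh and Tax1bp1, chosen after their values were seen.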

Additional observations from a re-analysis of the deposited data

How the results depend on the processing

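Numbers of Hox genes called moved with the fit, and the cause was not tested. Calls over all entries moved as well, so the counts below do not set Hox genes apart. For DS3201 over both shRNAs 801 entries rose and 33 fell without the block, 1974 and 636 with it, and 1343 and 263 by DESeq2. For combined against control 218 rose and 5 fell without the block, 1408 and 315 with it, 918 and 126 by DESeq2, and 321 and 7 with no filter on low counts. DS3201 over both shRNAs gave 1 call, and 7 with the replicate block; with a library left out the counts ran from 0 to 12 over fits with and without the block. Combined against control gave 0 calls, with 4 under the block, 1 with no filter on low counts, 2 by DESeq2 and 0 to 6 with a library left out. DS3201 with the control shRNA gave 0, with 1 under the block, 1 by DESeq2 and 0 to 6 with a library left out. DS3201 with the Ring1a knockdown gave 0, with 2 under the block, 1 by DESeq2 and 0 to 3 with a library left out. The knockdown over both inhibitor states gave 0, and 0 to 2 with a library left out; the knockdown with inhibitor gave 0, and 0 to 1. The difference between the sets, which has no fit without its term, gave 13, and 5 to 13 with a library left out. The interaction and the knockdown without inhibitor gave 0 under every alternative run. Among the alternatives run, no Hox gene called with or without the block turned its sign in the comparison that called it. The signs of genes not called were not followed across the alternatives. The cluster means moved by less than 1 SD on TMM-scaled CPM. RLE scaling moved the median of all entries by less than 0.1 in each comparison. With 2 libraries per group, and Hoxd genes at a few counts, depth limits what could be called there.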
